A study of Mus musculus with 16 samples.

Results

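A set of 10 genes of vesicle exocytosis and of the signals around it, Syt7, Syt1, Syt11, Sytl2, Exoc3l4, Exoc3, Nbea, Tmem163, Ralgapa2 and Ralgapa1, were followed in RNA from whole mouse kidneys with and without the transcription factor gene Hes1. The 10 genes were taken by symbol from a table of 28971 genes. They were chosen by their read counts in Hes1 cKO against control in these same libraries, the strongly changed ones together with their nearest relatives, so their group difference is given here as a description, with no p-value. Where a member is said to be called, this only places it in the fit from which the members were picked and is no separate test of it. Of the 10, 9 passed the filter on low counts and Syt1 did not.

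In the Hes1 cKO (conditional knockout) group the genotype was Pax8-rtTA; TRE-Cre; Hes1 f/f, with both copies of Hes1 floxed. Pax8-rtTA is active in the epithelium of the kidney tubules, so that doxycycline switches on Cre there, while endothelium, stroma and blood cells keep the gene. The controls were littermates labelled as wild type, with no further allele named. All mice, controls included, drank water with doxycycline at 1 mg/mL and 5% sucrose for 1 week from 3 weeks of age. The sample titles name 7 Hes1 cKO and 9 control kidneys, while the design text of the series has 9 and 7. The table used here holds 3 libraries named as mutant and 4 as wild type, numbered Hes1 cKO 1 to 3 and control 1 to 4 in the order of their columns, and 9 further libraries were not analysed here because their names show no genotype. The labels do not say that each library is a separate animal or litter, so spread between libraries may be partly technical.

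Total counts ran from 16973931 to 20420422 per library. Hes1 itself was at 17.2 to 19.8 CPM (counts scaled to the same library size, with trimmed mean of M-values, TMM, factors) in Hes1 cKO and at 42.8 to 67.6 CPM in control. Means below are given ± SD over the 3 Hes1 cKO and the 4 control libraries. The 7 proximal tubule markers were all measured, as the kidney label requires. RNA of adrenal genes was present in 4 libraries of both groups. The summed level of 9 adrenal cortex markers was 1103 CPM in Hes1 cKO 3, 814.4 CPM in control 1, 216.2 CPM in control 2 and 58.3 CPM in Hes1 cKO 1, and 7.04 to 7.52 CPM in the other 3. The chromaffin cell gene Chga of the adrenal medulla was at 79.3, 68.3, 15.5 and 0.793 CPM in the same order, while the other 3 libraries had 0 to 2 counts of it. With the mean of the adrenal lists as a covariate, the log2 fold change was 1.8 for Syt7, 1.28 for Exoc3l4, 1.62 for Tmem163, 0.64 for Nbea and 0.47 for Ralgapa2, close to the values without it below, though Ralgapa2 was then no longer called.

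Secretory vesicles fuse with the plasma membrane when SNARE proteins on both membranes zip together, and synaptotagmins are the proteins that let calcium trigger this step. The exocyst is a complex of subunits that holds vesicles at the membrane before fusion; the small GTPases RalA and RalB act through it, and RalGAP, whose catalytic subunits are made by Ralgapa1 and Ralgapa2, switches these GTPases off. In the collecting duct, principal cells insert the water channel Aqp2, and intercalated cells insert proton pumps, into their membranes by moving vesicles to the surface, and Hes1 acts downstream of Notch receptors, which keep principal and intercalated cells in balance.

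Syt7, Tmem163, Exoc3l4, Nbea and Ralgapa2 were higher in every Hes1 cKO library than in any control library, whereas Syt11, Sytl2, Exoc3 and Ralgapa1 overlapped between the groups. In the quasi-likelihood fit of edgeR over 15615 genes, adjusted after Benjamini and Hochberg, 5 of the 9 tested members were among the 50 genes called higher, at an adjusted p under 0.05, and none of the 9 was among the genes called lower. The called share of all tested genes was 0.339%, or 0.32% for those higher in Hes1 cKO, and 3.71% of all genes were without overlap in that direction. Since the members were picked on this contrast, nothing is read from these counts.

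**Figure D1:**
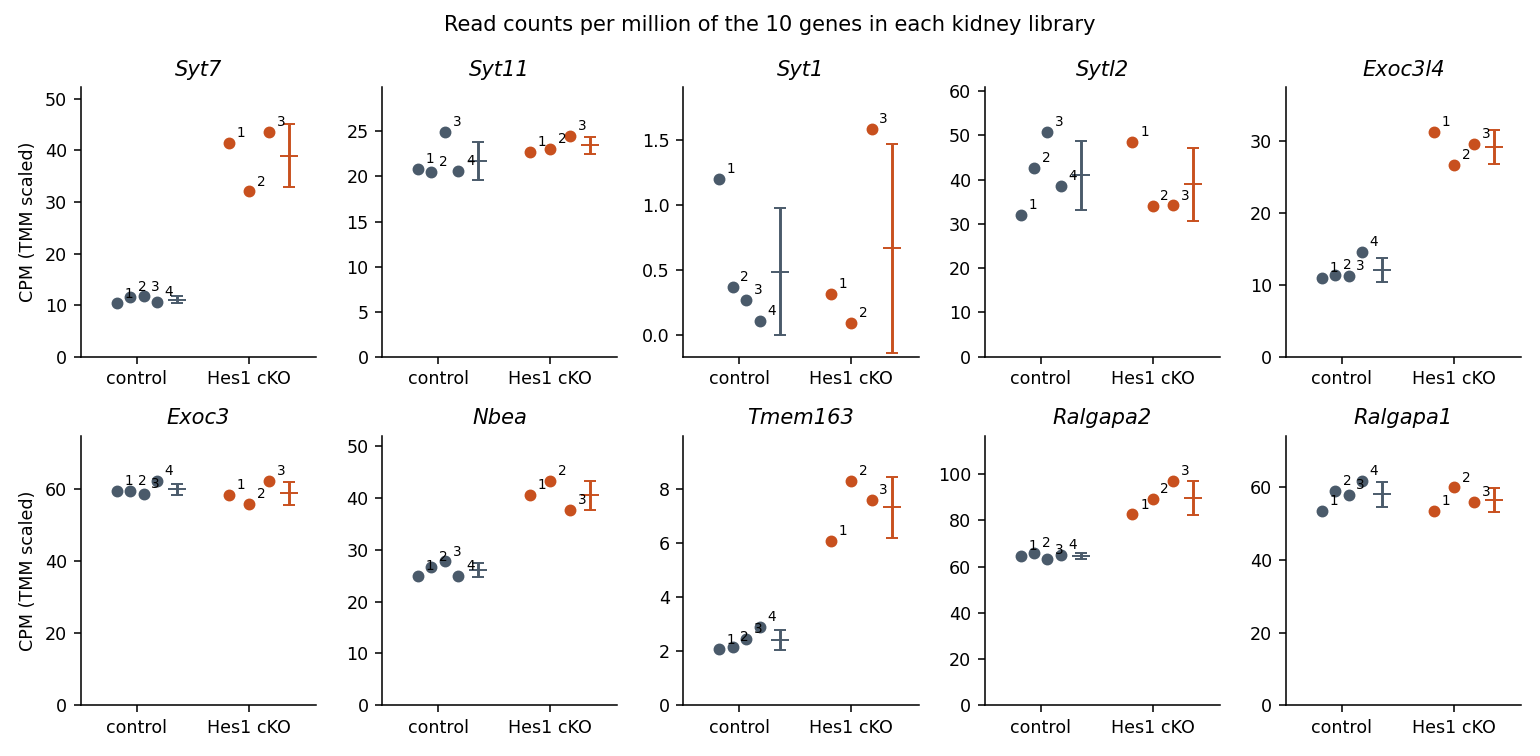
Scaled read counts (CPM, y axis, separate scale per panel) of the 10 genes in 4 control and 3 Hes1 cKO libraries; points are libraries with their number, the bar is the mean ± SD. Syt7, Exoc3l4, Nbea, Tmem163 and Ralgapa2 lie above all controls in Hes1 cKO, and the 2 highest points of Syt1 are Hes1 cKO 3 and control 1.

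Synaptotagmins were examined first. Syt7 (ENSMUSG00000024743) lies at chr19:10389090-10453180 on the plus strand of GRCm38 and encodes a high-affinity calcium sensor of slow exocytosis and of lysosome fusion with the plasma membrane. It was at 41.4, 32.0 and 43.5 CPM in Hes1 cKO 1, 2 and 3 and at 10.3, 11.6, 11.7 and 10.6 CPM in control 1, 2, 3 and 4. The controls lay close together and the lowest Hes1 cKO library, number 2, was 2.74-fold above the highest of them. The means were 39.0 ± 6.10 CPM in Hes1 cKO and 11.1 ± 0.708 CPM in control, a 3.52-fold ratio and a log2 fold change of 1.82 (SE 0.13). In bulk tissue, more cells that express a gene and more RNA of it per cell cannot be told apart, for Syt7 and for all genes below.

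Syt11 (ENSMUSG00000068923, chr3:88744700-88775164, minus strand) encodes a synaptotagmin that does not bind calcium. Its levels were 22.7, 23.0 and 24.5 CPM in Hes1 cKO and 20.8, 20.5, 24.9 and 20.6 CPM in control. Control 3 was above all Hes1 cKO libraries, and the log2 fold change was 0.11 (SE 0.10). Per kilobase of exon, Syt7 stood at 1.26, 0.967 and 1.23 times Syt11 in the Hes1 cKO libraries and at 0.345, 0.394, 0.326 and 0.357 times Syt11 in control.

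Syt1 (ENSMUSG00000035864, chr10:108497650-109010982, minus strand), the calcium sensor of fast transmitter release in neurons, was close to the limit of detection. It had 6, 2 and 27 counts in Hes1 cKO and 21, 7, 5 and 2 counts in control, which is 0.317, 0.0989 and 1.59 CPM against 1.205, 0.371, 0.274 and 0.109 CPM. The 4 highest libraries, Hes1 cKO 3, control 1, control 2 and Hes1 cKO 1, were the 4 with adrenal RNA, and they come from both groups. Hes1 cKO 1, the lowest of these, had 6 counts of Syt1, and control 3 had 5, so its place rests on very few reads. Of the 9 adrenal medulla markers, 8 had more counts in each of Hes1 cKO 3, control 1 and control 2 than in any other library. Slc18a1 did not, with 769 to 1398 counts in all 7 libraries. Th, which encodes the enzyme that starts catecholamine synthesis, had 223, 217 and 63 counts in Hes1 cKO 3, control 1 and control 2 and 0 in the other 4. The summed level of the medulla list, most of which comes from Slc18a1 where adrenal RNA is low, was 56.4 to 333.9 CPM in Hes1 cKO and 42.3 to 280.5 CPM in control. Neuron markers were low throughout, at 3.31 to 6.65 CPM in sum in Hes1 cKO and 2.89 to 7.23 CPM in control. Their highest sums were 7.23 CPM in control 1, 6.65 CPM in Hes1 cKO 3 and 5.67 CPM in control 2. These libraries were also the highest in Syt1. The part of adrenal or of neuron RNA in the Syt1 level was not tested.

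**Figure D2:**
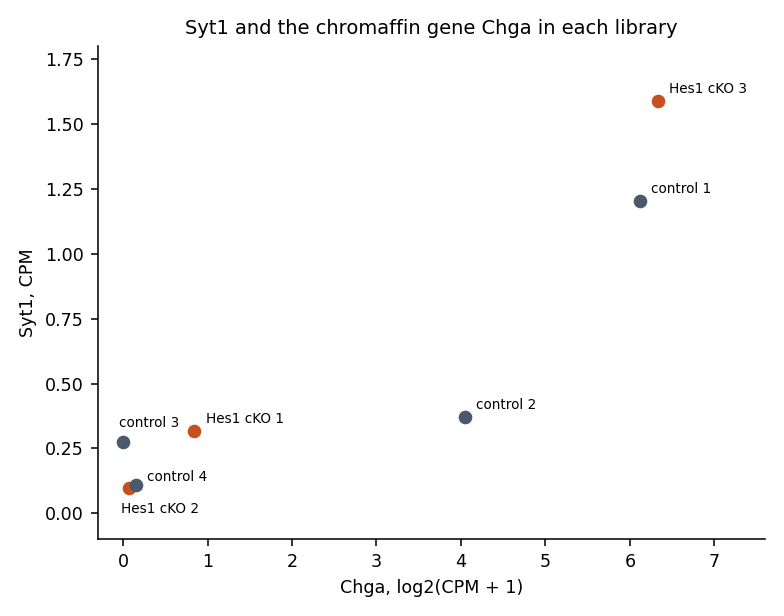
Syt1 (y axis, CPM) against the chromaffin gene Chga (x axis, log2 of CPM + 1) in each of the 7 libraries, coloured by group. Hes1 cKO 3 (1.59 CPM of Syt1) and control 1 (1.205 CPM) are high in both genes, and all 4 libraries with little Chga are at or below 0.317 CPM of Syt1.

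Per length, Syt7 changed its place within the synaptotagmin family. Its share of the summed CPM per kilobase of exon (RPKM) of 16 measured synaptotagmin genes was 7.64%, 9.39%, 8.27% and 8.95% in control 1 to 4 and 26.6%, 23.2% and 27.2% in Hes1 cKO 1 to 3. In each control library Syt11, Syt17 and Syt3 held larger shares than Syt7, as did Syt12 in control 1 and 2 and Syt14 in control 1, with Syt11 at 22.2% to 25.4%. In Hes1 cKO 1 and 3 Syt7 had the largest share of the family, while in Hes1 cKO 2 it was just below Syt11 (24.0%). These shares move with Syt7 itself and are no separate support for its difference. Of the other synaptotagmins, 13 were found in the table and 9 were tested: 6 were higher, 3 were lower and none was called, with a median log2 fold change of 0.054. Syt17, one of the most abundant of them, was at 15.3 ± 2.55 CPM in Hes1 cKO and 18.9 ± 2.33 CPM in control, and its log2 fold change was -0.30, with SE 0.15 and an adjusted p of 0.885 in edgeR.

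**Figure D3:**
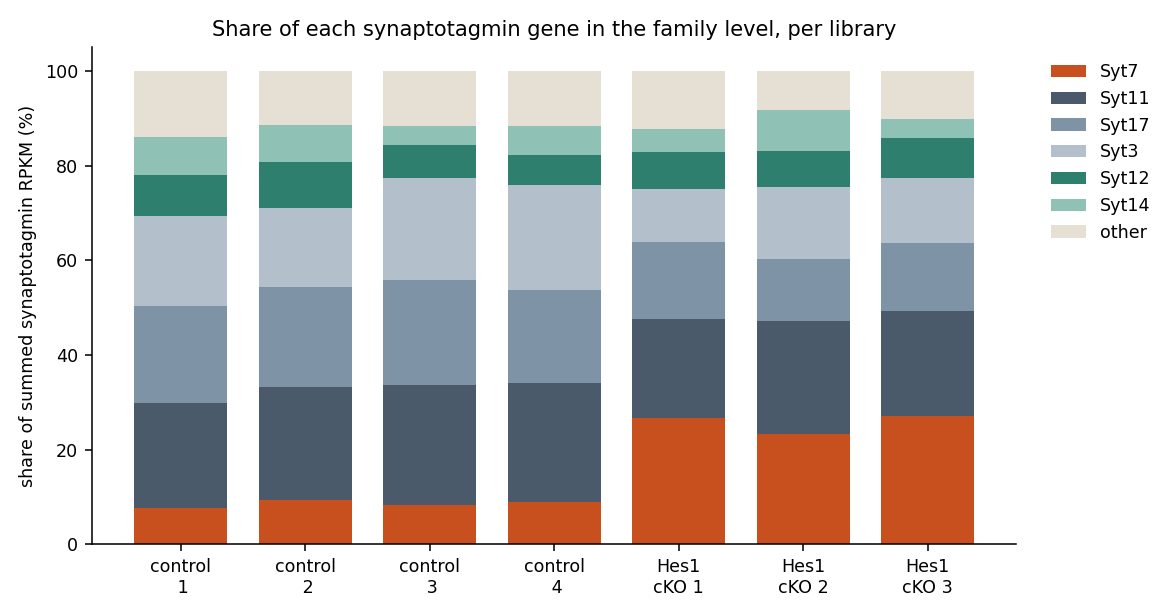
Share (%, y axis) of each synaptotagmin gene in the summed RPKM of the family, 1 bar per library, controls at the left and Hes1 cKO at the right. The Syt7 part grows from at most 9.39% in control to at least 23.2% in Hes1 cKO.

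Sytl2 (ENSMUSG00000030616, chr7:90302252-90410719, plus strand) encodes a synaptotagmin-like protein that ties vesicles with Rab27 to the plasma membrane. It was at 48.5, 34.1 and 34.2 CPM in Hes1 cKO and 32.0, 42.6, 50.7 and 38.6 CPM in control. The groups overlapped over most of their range, and it was the most variable member after Syt1, with a coefficient of variation of 21.3% in Hes1 cKO and 19.1% in control. The log2 fold change was -0.08 (SE 0.17). Among 19 tested partners of Rab27 and Rab3, 10 were higher and 9 lower with none called. Rab27a was at 32.4 ± 2.33 CPM in Hes1 cKO against 31.3 ± 7.19 CPM in control and Rab27b at 7.61 ± 0.952 CPM against 8.35 ± 2.35 CPM.

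In the exocyst group, Exoc3l4 (ENSMUSG00000021280, chr12:111417017-111431678, plus strand) is a relative of the subunit gene Exoc3; its own role is less well known. It was at 31.2, 26.6 and 29.5 CPM in Hes1 cKO and 10.96, 11.4, 11.2 and 14.5 CPM in control. Control 4 was apart from the other controls, and the lowest Hes1 cKO library was still 1.83-fold above it. The means were 29.1 ± 2.33 CPM in Hes1 cKO and 12.01 ± 1.68 CPM in control, a 2.42-fold ratio and a log2 fold change of 1.28 (SE 0.13).

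Exoc3 (ENSMUSG00000034152, chr13:74169488-74208732, minus strand) encodes the exocyst subunit also called Sec6. It was at 58.3, 55.8 and 62.3 CPM in Hes1 cKO and 59.5, 59.4, 58.8 and 62.2 CPM in control. The range of the controls lay wholly inside that of Hes1 cKO, and the log2 fold change was -0.03 (SE 0.07). The level of Exoc3l4 per kilobase was thus 0.503 to 0.568 of that of Exoc3 in Hes1 cKO and 0.195 to 0.248 in control.

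The other exocyst subunits and Exoc3-like genes, 11 in all, were each tested. Of these, 5 were higher, 6 were lower and none was called, with a median log2 fold change of -0.0086. Exoc8 was the 1 gene of this list whose groups did not overlap, at 38.1 to 41.4 CPM in Hes1 cKO and 31.7 to 35.3 CPM in control, a log2 fold change of 0.22, with SE 0.08 and an adjusted p of 0.731 in edgeR. Tnfaip2, another Exoc3-like gene, is downstream of Exoc3l4 on the same strand, 10791 bases away. It was at 45.4 ± 6.04 CPM in Hes1 cKO and 52.8 ± 11.2 CPM in control, and its log2 fold change was -0.22, with SE 0.17 and an adjusted p of 0.948 in edgeR. None of the 6 tested genes listed around Exoc3l4 was called. The nearest, the antisense gene Gm10425, which overlaps Exoc3l4 and had 3 to 23 counts, was at 1.34 (SE 0.46, adjusted p 0.693 in edgeR) on the log2 fold change scale, close to Exoc3l4 itself. Of the others, Traf3 was at 0.18, Amn at -0.11 and Gm266 at -0.12 on that scale. On the other side the nearest tested gene, Cdc42bpb, which encodes a kinase that acts on the cytoskeleton, had a log2 fold change of 0.23, with SE 0.08 and an adjusted p of 0.707 in edgeR.

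Ralgapa2 and Ralgapa1 encode the alternative catalytic subunits of RalGAP, and only the groups of Ralgapa2 were apart. Ralgapa2 (ENSMUSG00000037110, chr2:146239879-146512344, minus strand) was at 82.5, 89.2 and 97.1 CPM in Hes1 cKO and 64.6, 65.9, 63.1 and 65.1 CPM in control. Its controls varied less, relative to their mean, than those of any other member, with a coefficient of variation of 1.84%, and the smallest Hes1 cKO value was 1.25-fold above the largest of them. The means were 89.6 ± 7.30 CPM in Hes1 cKO and 64.7 ± 1.19 CPM in control, which is 0.47 as a log2 fold change (SE 0.08). Ralgapa1 (ENSMUSG00000021027, chr12:55602896-55821167, minus strand) was at 53.4, 60.0 and 55.9 CPM in Hes1 cKO and 53.6, 59.1, 57.8 and 61.8 CPM in control, which is -0.04 as a log2 fold change (SE 0.08). Its groups overlapped almost fully.

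Within each library, the level of Ralgapa2 per kilobase was 1.01, 0.973 and 1.14 times that of Ralgapa1 in Hes1 cKO and 0.789, 0.730, 0.714 and 0.689 times in control. The 2 ranges of this ratio did not overlap. Ralgapb, which encodes the partner subunit that both share, was at 119.7 ± 8.84 CPM in Hes1 cKO and 108.8 ± 2.61 CPM in control, and its log2 fold change was 0.14, with SE 0.08 and an adjusted p of 0.934 in edgeR. Its groups did not overlap, at 112.0 to 129.4 CPM in Hes1 cKO and 105.0 to 110.8 CPM in control. For the GTPases themselves, Rala had a log2 fold change of 0.04 (SE 0.10) and Ralb one of 0.05 (SE 0.07). Of the 12 tested genes around Ral, 8 were higher, 4 were lower and none was called. Besides Ralgapb, the groups of 1 of them were without overlap, with Hes1 cKO lower. Of all tested genes, 3.71% were without overlap with Hes1 cKO higher and 3.29% with it lower. The call of Ralgapa2 was the weakest of the 5: it remained in 6 of 15 alternatives and was lost when any 1 library was left out, under limma-voom and with the adrenal covariate, with log2 fold changes of 0.41 to 0.52.

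Nbea (ENSMUSG00000027799, chr3:55625195-56183701, minus strand) encodes neurobeachin, a large BEACH domain protein that sorts membrane proteins towards the synapse. It was at 40.6, 43.3 and 37.6 CPM in Hes1 cKO and 25.0, 26.7, 27.7 and 24.9 CPM in control. All Hes1 cKO values lay at least 1.36-fold above the controls, and the means were 40.5 ± 2.84 CPM in Hes1 cKO and 26.1 ± 1.36 CPM in control, which is 0.63 as a log2 fold change (SE 0.09). The call remained in 10 of 15 alternatives and was lost without Hes1 cKO 1, Hes1 cKO 2, control 1, control 3 or control 4. The 8 other BEACH domain genes had a median log2 fold change of 0.13, 6 higher and 2 lower, with none called. Nbeal2, which platelets need for their granules, was the one that differed most, at 137.5 ± 13.4 CPM in Hes1 cKO and 109.0 ± 14.7 CPM in control, and its log2 fold change was 0.33, with SE 0.12 and an adjusted p of 0.699 in edgeR.

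Tmem163 (ENSMUSG00000026347, chr1:127486546-127679548, minus strand) encodes a zinc transporter found in synaptic vesicles. It was at 6.08, 8.31 and 7.59 CPM in Hes1 cKO and 2.07, 2.17, 2.47 and 2.89 CPM in control. Low counts lie behind these levels, 115 to 168 per library in Hes1 cKO and 36 to 53 in control, so counting error is larger here than for the other called members. The lowest Hes1 cKO library was 2.10-fold above the highest control, and the means were 7.33 ± 1.13 CPM in Hes1 cKO and 2.4 ± 0.371 CPM in control, which is 1.61 as a log2 fold change (SE 0.19). The call was lost without Hes1 cKO 2. Of 10 zinc transporter genes of the Slc30 family, 7 were tested, 2 higher and 5 lower, and none was called.

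The 7 exocytosis lists were drawn up by gene family, and not every gene in them has a known part in exocytosis. Across these lists, 97 of 111 genes other than the members were tested, 51 higher and 46 lower. Against -0.0064 for all tested genes, the median log2 fold change of these 97 was 0.012. EdgeR called 0 of them, as did DESeq2 and limma-voom, and 6 of the 97 had an unadjusted p under 0.05, where 929 of all 15615 tested genes did. The groups of 2 genes were without overlap with Hes1 cKO higher and those of 4 with it lower, where 3.71% and 3.29% of all tested genes were. The 6 genes with an unadjusted p under 0.05 in edgeR are named here after their values were seen. Rph3a, Syt9 and Cplx2 were lower in Hes1 cKO, and Mlph, Exoc8 and Nbeal2 were higher. Rph3a, which encodes the Rab3 effector rabphilin, was at 0.0529, 0.297 and 0.823 CPM in Hes1 cKO and 2.29, 0.953, 1.26 and 2.51 CPM in control (edgeR adjusted p 0.546). Cplx2, a complexin gene that clamps SNARE complexes, was at 19.0 ± 0.726 CPM in Hes1 cKO and 21.8 ± 0.624 CPM in control, and its log2 fold change was -0.20, with SE 0.09 and an adjusted p of 0.833 in edgeR. Of the SNAREs and their regulators, 31 were tested, 14 higher and 17 lower. Their median log2 fold change was -0.013.

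**Figure D4:**
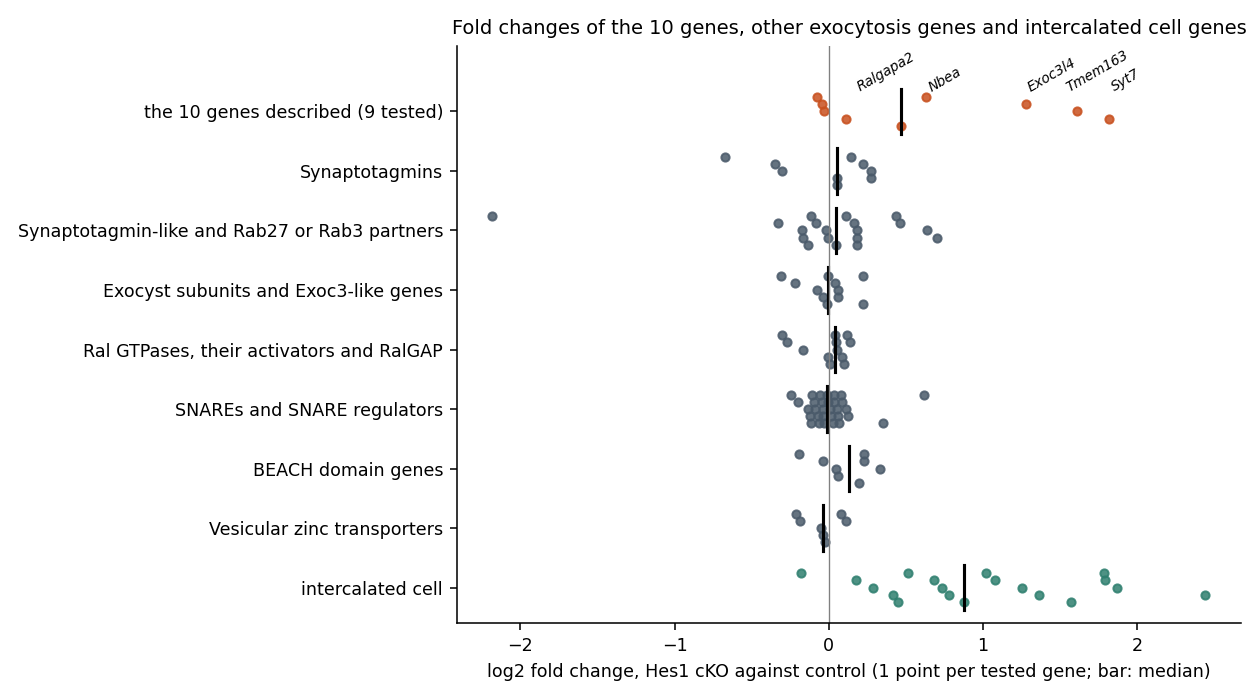
Log2 fold change of Hes1 cKO against control (x axis) for each tested gene of the group described, of the 7 exocytosis lists and of the intercalated cell markers. Black bars are medians. The exocytosis lists have medians from -0.035 to 0.13, and the intercalated cell list has a median of 0.88.

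Compared per kilobase, the order of the members changed between the groups. In control it ran from Exoc3 (9.997 ± 0.255 RPKM) through Ralgapa1 (4.72), Syt11 (4.175), Ralgapa2 (3.44), Sytl2 (2.94), Exoc3l4 (2.13), Syt7 (1.48), Nbea (0.832) and Tmem163 (0.559) to Syt1 (0.0587). The ranges of Ralgapa1 and Syt11 overlapped, as did those of Ralgapa2 and Sytl2 and those of Sytl2 and Exoc3l4; all other neighbours in this order were apart in the 4 controls. In Hes1 cKO, Exoc3 was again first (9.81 ± 0.548 RPKM), and Syt7 (5.21 ± 0.815 RPKM) and Exoc3l4 (5.15 ± 0.412 RPKM) came next, in ranges that overlapped each other and those of Ralgapa2 (4.76), Ralgapa1 (4.59) and Syt11 (4.50).

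Levels of the called members did not follow each other library by library. Hes1 cKO 2 had the lowest Syt7 and Exoc3l4 of the 3 Hes1 cKO libraries and the highest Tmem163 and Nbea. Ralgapa2 was highest in Hes1 cKO 3, and Exoc3l4 in Hes1 cKO 1. With 3 libraries these orders are a description only.

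Most markers of intercalated cells were higher in Hes1 cKO, as the called members were, but by unlike amounts. Of 19 such genes, 18 were higher and 10 were called higher, the median being 0.88 in log2 fold change, and the groups of 14 were without overlap. Of all tested genes, 0.32% were called higher and 3.71% were without overlap in that direction. Their summed level was 2289 to 2445 CPM in Hes1 cKO and 1192 to 1417 CPM in control. Of 10 tested principal cell markers 8 were lower and 1 was called lower, where 3 of all 15615 tested genes were called lower. The summed level of the principal cell markers was 1039 to 1531 CPM in Hes1 cKO and 1603 to 2312 CPM in control. Both marker lists were drawn up with earlier results of these data known, so their counts are a description only. The part of either cell type in the levels of the members was not tested. In log2(CPM + 1), measured against the mean of the intercalated cell list in the same library, Syt7 stood at -0.72, -1.12 and -0.65 in Hes1 cKO. In control it stood at -1.42, -1.52, -1.64 and -1.74, so it was higher relative to the list mean in Hes1 cKO. Log2 fold changes in the list ran from -0.18 (Rhcg) to 2.44 (Hmx2), and Hmx2 and Foxi1 (1.87) changed more than Syt7 (1.82). The members were picked for their change in this contrast, so their place against the list mean is a description only. Exoc3l4 stood at -1.12, -1.38 and -1.2 against -1.35, -1.55, -1.70 and -1.32, which overlap. Ralgapa2 stood at 0.26, 0.32 and 0.49 against 1.11, 0.89, 0.69 and 0.77, and was lower relative to the list in Hes1 cKO. Tmem163, at -3.3, -2.95 and -3.03 against -3.31, -3.51, -3.52 and -3.32, was higher in this measure in Hes1 cKO by a narrow margin. At the low CPM of Tmem163, the offset of 1 makes its differences smaller than those of the more abundant members. Nbea, at -0.86 to -0.70 against -0.58 to -0.22, was also lower in this measure in Hes1 cKO.

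Genes with profiles most like Syt7 and Exoc3l4 were sought among 14143 tested genes with a mean of at least 1 CPM. Likeness was the root mean square difference, over the 7 libraries, of log2(CPM + 1) with the control mean of each gene subtracted. The group difference dominates this measure, and it says nothing of shared control. Closest to Syt7 were 4930469K13Rik (0.14), Insrr (0.21), Foxi1 (0.21), Gm47790 (0.24) and Gm12121 (0.26). Gm47790, at a mean of 0.324 CPM in control and 2.55 CPM in Hes1 cKO, met the limit of 1 CPM only through Hes1 cKO. The offset of 1 makes the differences of low genes smaller. In the edgeR fit the log2 fold change was 2.93 (SE 0.45) for Gm47790 and 2.20 (SE 0.23) for 4930469K13Rik, against 1.82 for Syt7. Foxi1 encodes the transcription factor that specifies intercalated cells, and Insrr a receptor kinase that senses alkaline pH. 4930469K13Rik, at 12.5, 7.47 and 11.6 CPM in Hes1 cKO, was lowest in Hes1 cKO 2 as Syt7 was, and so was Gm47790. Foxi1 and Gm12121 were lowest in Hes1 cKO 3 and Insrr in Hes1 cKO 1. These genes were picked for likeness to Syt7 in the same libraries, so a shared order is no separate result. Closest to Exoc3l4 were Plcg2 (0.12), a phospholipase gene, Dll1 (0.13), a Notch ligand gene, Dagla (0.15), which encodes the lipase that makes the endocannabinoid 2-AG, and Bdkrb2 (0.15), a bradykinin receptor gene.

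**Figure D5:**
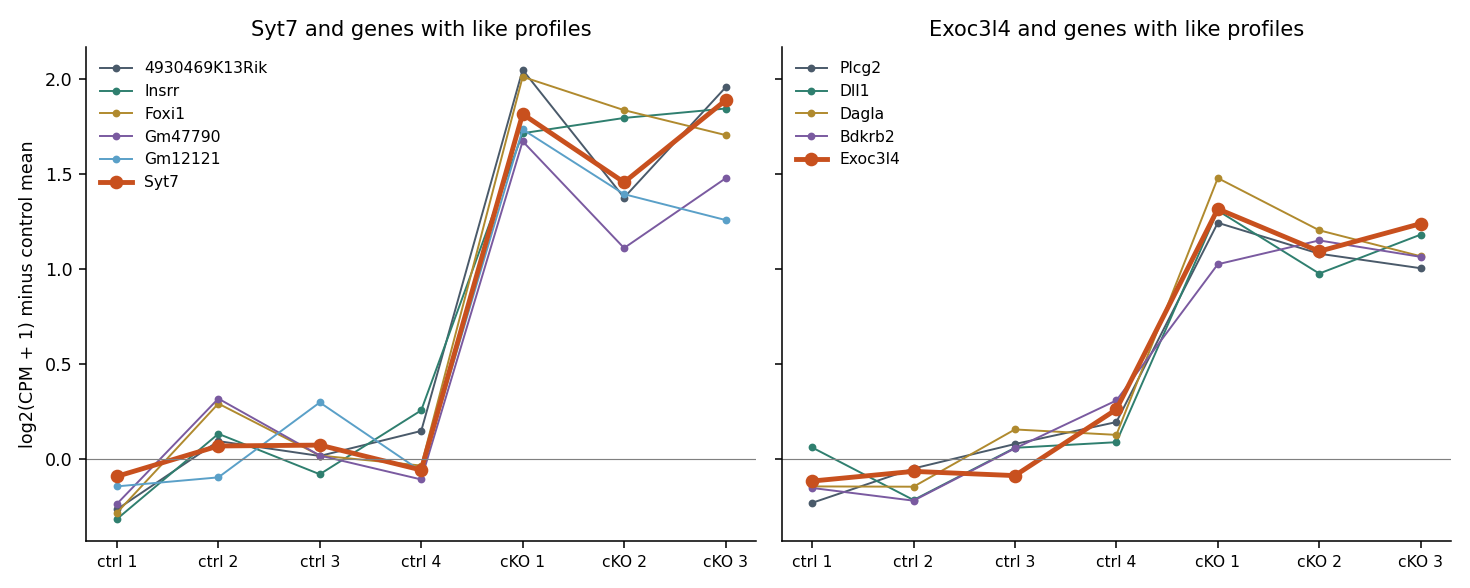
Log2(CPM + 1) minus the control mean (y axis) of Syt7 (left) and Exoc3l4 (right), thick lines, and of the 5 genes closest to Syt7 and the 4 closest to Exoc3l4, thin lines, in 4 control and 3 Hes1 cKO libraries; lines only join the points of a gene. The Syt7 panel shows the lower value of Syt7 in Hes1 cKO 2, seen in 4930469K13Rik and Gm47790 too. Foxi1 and Gm12121 are lowest in Hes1 cKO 3 and Insrr in Hes1 cKO 1. The genes were picked for likeness in these libraries, so a shared order is no separate result.

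Several of these genes are neighbours on their chromosomes. Dagla, picked here after its values were seen, is the nearest gene upstream of Syt7 on chromosome 19, on the opposite strand, with a gap of 84212 bases that holds no other annotated gene. Dagla was at 36.4, 29.97 and 27.2 CPM in Hes1 cKO and 11.2, 11.2, 14.0 and 13.7 CPM in control, which is 1.32 as a log2 fold change (SE 0.14), and it too was called. Both genes were higher in all Hes1 cKO libraries, while the next gene beyond Dagla, Myrf, had a log2 fold change of -0.18 (SE 0.16) and the nearest tested gene on the other side of Syt7, Lrrc10b, had one of 0.23 (SE 0.46). On chromosome 11, 4930469K13Rik, Gm12121 and Foxi1 follow one another with gaps of 43272 and 60916 bases. All these pairs come from genes picked for like profiles in these libraries. How often other genes with like profiles lie side by side was not tested.

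Promoter sequences are shown for 4 of the 5 called members, to place the letters of known motifs beside their values. RefSeq (GRCm38.p6) gave windows of 300 bases, from 250 before to 50 after a start site, for 8 of the 10 members; Syt7 and Sytl2 had no entry, and for Exoc3l4 the first of its 2 windows is shown. The windows were searched on both strands for letters bound by Hes proteins, the N-box CACNAG and the class C box CACGCG, for the E-box CACGTG, for the forkhead core TGTTTAC and for the HMX core CAAGTG; matches are in capitals and no match overlaps another here. The windows are chr12:111417180-111417479 for Exoc3l4 on the plus strand, and chr1:127677972-127678271 for Tmem163, chr3:56183652-56183951 for Nbea and chr2:146511955-146512254 for Ralgapa2 on the minus strand, each read 5′ to 3′ along its gene.
Exoc3l4: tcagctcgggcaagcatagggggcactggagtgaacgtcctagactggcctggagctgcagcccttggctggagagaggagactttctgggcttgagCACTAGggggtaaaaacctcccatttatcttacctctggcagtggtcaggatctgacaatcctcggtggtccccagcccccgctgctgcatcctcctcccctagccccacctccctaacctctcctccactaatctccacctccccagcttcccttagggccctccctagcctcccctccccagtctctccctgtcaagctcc
Tmem163: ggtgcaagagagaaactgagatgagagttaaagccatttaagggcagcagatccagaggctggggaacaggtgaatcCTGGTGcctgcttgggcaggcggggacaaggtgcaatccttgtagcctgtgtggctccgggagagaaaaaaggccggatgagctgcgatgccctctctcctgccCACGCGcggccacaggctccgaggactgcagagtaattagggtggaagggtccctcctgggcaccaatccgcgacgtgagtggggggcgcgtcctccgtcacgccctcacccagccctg
Nbea: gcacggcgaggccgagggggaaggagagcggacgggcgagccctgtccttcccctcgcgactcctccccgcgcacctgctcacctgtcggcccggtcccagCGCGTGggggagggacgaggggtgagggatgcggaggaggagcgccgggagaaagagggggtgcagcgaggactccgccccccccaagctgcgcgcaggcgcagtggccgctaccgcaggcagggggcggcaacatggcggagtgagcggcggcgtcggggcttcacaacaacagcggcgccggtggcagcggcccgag
Ralgapa2: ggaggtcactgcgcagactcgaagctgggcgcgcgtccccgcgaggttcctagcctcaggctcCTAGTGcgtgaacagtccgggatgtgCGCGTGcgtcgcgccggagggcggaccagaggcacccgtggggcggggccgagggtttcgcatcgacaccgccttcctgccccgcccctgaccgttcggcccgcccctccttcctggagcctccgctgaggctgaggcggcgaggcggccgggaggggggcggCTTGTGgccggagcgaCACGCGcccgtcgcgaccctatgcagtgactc

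The N-box letters were found in Exoc3l4 (1 match), Tmem163 (1) and Ralgapa2 (2), and 42.5% of all 32851 promoter windows hold them. The class C letters were found in Tmem163 (1), Nbea (1) and Ralgapa2 (2), against 9.27% of all windows. These windows are rich in G and C, at 60.7% in Exoc3l4, 61.7% in Tmem163, 73.3% in Ralgapa2 and 75% in Nbea, where the median window has 52.7%. The E-box (7.15% of all windows), the forkhead core (3.65%) and the HMX core (13.6%) were not met in these 4. Among the members that overlapped between groups or were too low to test, Exoc3 held the N-box letters at 2 places, Syt11 at 1, each of the 2 Ralgapa1 windows at 1 and neither Syt1 window. The HMX core was met in Syt11, in 1 window of Syt1 and in 1 of Ralgapa1, which held the forkhead core as well. The class C box was in none of these windows, whose G and C content was lower, from 34.7% to 57.0%. A match is a description of letters, not a binding site.

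No source used here gives the strand setting of the counting, so reads of overlapping genes on the other strand may be included. Exons of Exoc3l4 share 888 bases with Gm10425, an antisense transcript with 9 to 23 counts in Hes1 cKO and 3 to 10 in control, far fewer than Exoc3l4 (502 to 590 and 191 to 266 counts). Exons of Tmem163 share 152 bases with Mgat5, which is much more abundant (999 to 1424 counts) and had a log2 fold change of -0.15. Exons of Syt7 share 384 bases with Gm26859, which is not in the table, and those of Nbea and Ralgapa2 overlap genes with at most 2 counts in any library.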

How the data were processed

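Whole kidney RNA was sequenced in 150 bp pairs (NovaSeq), per the labels' protocols. The authors deposited whole-number read counts per gene, not normalized, in 2 tables; per the submitters' processing notes FastQC, STAR and DESeq2 and the builds mm10 and GRCm38 were used, while the counting program, its strand setting and its annotation are not named there. The second table, with 9 columns, was left out because its column names give no genotype. The 3 MT and 4 WT columns were assigned to Hes1 cKO and control by name and carry no sex or replicate number. Xist RNA, made in female cells, was at 8.423, 8.385 and 8.525 in log2(CPM + 1) in Hes1 cKO 3, control 3 and control 4. In the other libraries it was at 0.08 to 0.45. With Xist as a covariate, the log2 fold change was 1.83 for Syt7, 1.30 for Exoc3l4, 1.65 for Tmem163, 0.62 for Nbea and 0.48 for Ralgapa2.

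Genes passing filterByExpr (minimum count 10) were fitted with edgeR 4.0.16 in R 4.3.3 (TMM scaling, quasi-likelihood test, no covariate), with Benjamini-Hochberg adjustment over all tested genes; a gene is called at an adjusted p under 0.05. SEs were derived from the F statistic. The procedure was tested on simulated data. Gene positions and exon lengths are from GENCODE M21 (GRCm38), which held 28883 of 28971 identifiers; RPKM is CPM per kilobase of merged exons. Named genes are Hes1, the 10 members, called genes of the 7 exocytosis lists (0), the 5 closest profiles of Syt7 and of Exoc3l4 (1 of the latter is not reported here), and the neighbours of Exoc3l4; genes named after their values were seen are Dagla, Myrf and Lrrc10b as neighbours of Syt7, relatives named beside a member, and those said to be so. Members and lists were chosen with earlier results of these data known. Without molecular identifiers, PCR copies cannot be told from separate molecules. The p-values measure the spread between these libraries. Alternatives used DESeq2 1.42.0, limma 3.58.1, other scalings and filters, covariates and fewer libraries.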

Additional observations from a re-analysis of the deposited data

Results flagged for a closer look

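In the 4 control libraries, 1 library stood apart from the other 3 by Dixon's test at its 95% limit in 4 of 21 genes examined, where chance gives about 1 in 20 for independent genes. Many of the 21 genes were picked by their values in these same libraries. They are not independent, so no excess over that rate is read from the count. Control 3 was high in Syt11 (24.9 CPM, gap 0.937 of the range) and in Gm12121 (12.3 CPM, 0.842). Control 4 was high in Exoc3l4 (14.5 CPM, 0.880), and without it the log2 fold change of that gene was 1.38 in place of 1.28. Control 2 was low in Dll1 (9.58 CPM, 0.893). Control 3 and control 4, but not control 2, had high Xist RNA. No cause was tested.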

How the results depend on the processing

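The number of called genes was 53 and moved to 102 (53 shared) without a low-count filter and to 130 (53 shared) with DESeq2's Wald test; leaving out 1 library gave 25 to 47, with 25 without Hes1 cKO 2 and 27 without Hes1 cKO 1. The cause was not tested, beyond the fewer libraries in the last. The number of called exocytosis genes was 0 in all 15 alternatives. The log2 fold change ranged from 1.73 to 1.94 for Syt7, 1.22 to 1.38 for Exoc3l4, 1.51 to 1.72 for Tmem163, 0.58 to 0.68 for Nbea and 0.41 to 0.52 for Ralgapa2, and Syt7 and Exoc3l4 were called in all 15. The alternatives reuse the counts from which the members were picked, so the calls of members in them are no separate support. Sytl2 ranged from -0.27 (without Hes1 cKO 1) to 0.04 (without control 3) and Exoc3 from -0.07 to 0.01, so neither has a direction. No paired analysis was possible because the columns carry no replicate number of the labels. Depth limits Syt1 and Tmem163 most.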
